A study of Mus musculus with 3 samples.

Results

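Thymocytes of a β-catenin transgenic mouse were compared with thymocytes of a TCF-1-deficient mouse, gene by gene, on Affymetrix whole-transcript arrays. The comparison used 2 of the 3 arrays of the study, and 19105 autosomal genes of the 19938 genes with a probe set of 1 annotated symbol. Genes with several probe sets are represented by the probe set of highest average level across the 3 arrays. The transgenic mouse carried a β-catenin transgene and was 16 weeks old. The TCF-1-deficient mouse was TCF-1-/- and 8 weeks old. A wild type mouse of 12 weeks gave the remaining array, which did not enter the difference and is given beside it. In all 3 cases the RNA came from primary thymocytes passed through a strainer, with no sort or gate named. The sources used here do not give the promoter of the transgene or the disrupted part of the gene, and the gene encoding TCF-1 was not analysed here. The study's design text names as its interest genes low without TCF-1 and high with the transgene, as candidate targets of β-catenin and TCF-1. Each genotype had 1 array, so the differences have no replicate check, no error and no test, and the number of arrays limits their precision.

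TCF-1 is a DNA-binding protein of the TCF/LEF family, abundant in T cells, and β-catenin is the coactivator that joins it when Wnt signalling is active. Thymocytes begin without CD4 and CD8, go through a checkpoint at the DN3 stage that needs the pre-T-cell receptor and Notch, become CD4+ CD8+ double-positive cells that rearrange the T-cell receptor alpha chain, and leave as single-positive cells. Mice without TCF-1 are known for a block along this path and for short-lived double-positive cells.

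Values are log2 levels as deposited, and a difference is the transgenic level minus the TCF-1-deficient level. A gene counts as higher or lower on the transgenic array when it is past 2-fold, a difference of 1 in size. By this rule 468 genes (2.45%) were higher and 305 (1.6%) were lower, 4.05% in all. The gene and marker lists used below were written with earlier results of these data known. Their counts, set beside these shares, are description and not a test. At 1.5-fold the shares were 6.28% higher and 4.48% lower, and at 3-fold 0.879% and 0.591%. Calls were rare among dim genes. Where the brighter of the 2 arrays was under 6, 3 of 5627 genes were higher and 6 were lower, and where it was at least 10, 201 of 2178 (9.23%) were higher and 77 (3.54%) were lower. These bins use the same 2 arrays as the call, so a gene high on 1 array falls in a brighter bin. Identical values made up 69.4% of the genes under 6 and 8.17% of those at 10 or more. The 2 arrays held identical values for 7791 genes (40.8%), so a difference of 0 is not a measured equality. The only repeat measure is between probe sets of a gene. Over 951 genes with more than 1, called or not, the pooled SD of the difference was 0.228. Of 41 called genes among them all probe sets lay on the called side for 34 and past 2-fold for 21. Single called genes spread more, such as Wdr25 with an SD of 1.86. Genotype, age and a sex-linked difference cannot be told apart here. Chosen after their values were seen, the sex-linked genes differed: the level of Xist, the RNA of the inactive X, was 4.86 on the transgenic, 12.17 on the TCF-1-deficient and 12.49 on the wild type array, and the level of the Y-linked gene Uty was 8.81, 4.43 and 4.20. A set of probe sets without gene names also stood apart, and what they measure is not stated in the sources used here. Of 6617 unnamed probe sets numbered before the first annotated one, 1117 (16.9%) were higher and 125 (1.89%) were lower on the transgenic array, and their part in the gene results was not tested.

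**Figure D1:**
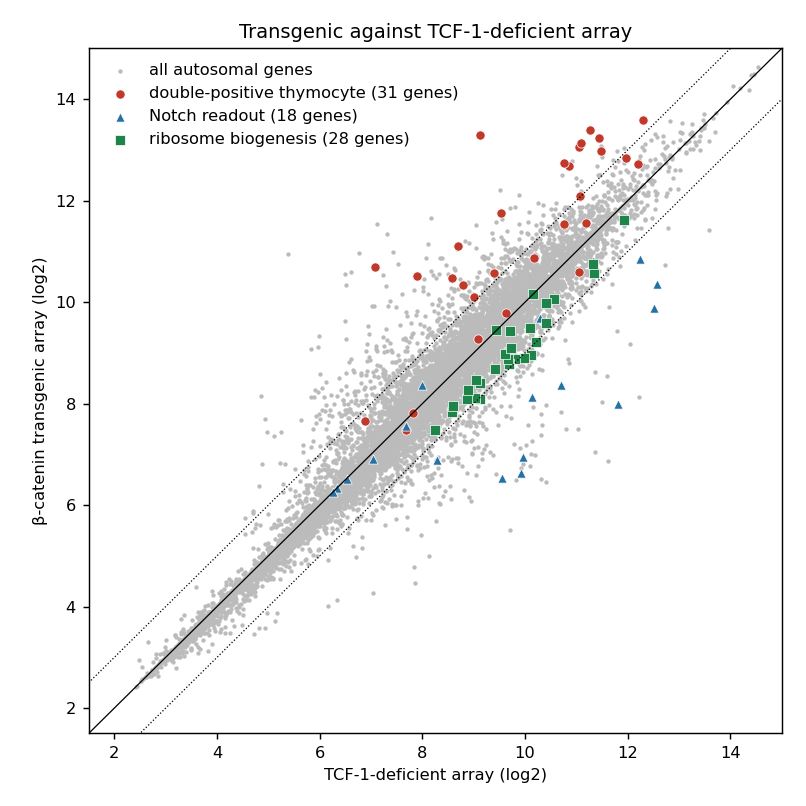
Level of each autosomal gene on the TCF-1-deficient array (x axis, log2) and on the transgenic array (y axis, log2), with dotted lines at 2-fold and the double-positive, Notch readout and ribosome biogenesis genes coloured. Of the 31 double-positive genes 18 lie above the upper line, and of the 18 Notch readout genes 10 lie below the lower line.

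For most called genes the wild type level lay at the transgenic level. A wild type value was placed at an array when it was within 0.5 (log2) of it. Of the 468 higher genes, 391 (83.5%) had the wild type at the transgenic level, 12 (2.56%) at the TCF-1-deficient level, 44 (9.4%) between and 21 (4.49%) outside the pair. Of the 305 lower genes, the counts were 249 (81.6%), 7 (2.3%), 37 (12.1%) and 12 (3.93%). The wild type array did not enter the difference, though for genes with several probe sets it helped to choose the probe set. Why its level lay there was not tested.

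**Figure D2:**
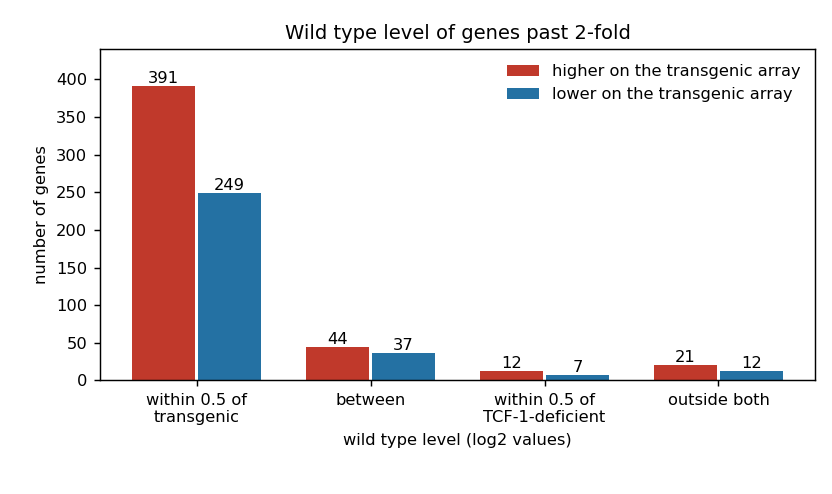
Number of called genes whose wild type level lies at the transgenic level, at the TCF-1-deficient level, between them or outside them, for higher and lower genes, with a margin of 0.5 on the log2 scale. The transgenic level holds 391 of the 468 higher genes and 249 of the 305 lower genes.

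The largest difference upward was that of Cecr2, high on the transgenic array alone. Cecr2, a bromodomain protein of chromatin remodelling complexes, had log2 levels of 10.94 on the transgenic, 5.37 on the TCF-1-deficient and 6.10 on the wild type array, and was 47.5-fold higher on the transgenic than on the TCF-1-deficient array. Jup, which encodes γ-catenin (plakoglobin), a close relative of β-catenin, was at 11.54, 7.12 and 11.06, and was 21.3-fold higher. Cd4, the coreceptor for MHC class II, was at 13.29, 9.13 and 12.87, and was 17.8-fold higher. Papss2, which makes the sulfate donor of sulfation reactions, was at 10.96, 6.77 and 9.66. Anxa2, a calcium-dependent membrane-binding protein, was at 11.34, 7.31 and 11.14. Slc7a11, the cystine and glutamate exchanger, was at 10.98, 7.43 and 10.99. For Jup, Cd4, Anxa2 and Slc7a11 the transgenic and wild type levels lay within 0.5 of each other, while Papss2 had a wild type level between the others, nearer the transgenic one. Ctsl, a lysosomal protease, also had its wild type level between them, with levels of 11.66, 8.17 and 9.95. The rest of the 15 largest were F13a1, Map4k5, Smoc1, Dgkeos, Sgk3, Plod2, Pip5k1b and Wdr78. The smallest fold of the 15 was that of Wdr78, 9.38-fold.

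The largest differences downward, genes highest on the TCF-1-deficient array, included several cell surface receptors. Pdgfrb, a tyrosine kinase receptor of mesenchymal cells, had log2 levels of 6.87 on the transgenic, 11.62 on the TCF-1-deficient and 7.15 on the wild type array, 26.8-fold higher on the TCF-1-deficient array. Gfra1, a coreceptor for GDNF, was at 8.13, 12.22 and 8.91. Mpzl2, an adhesion molecule of the immunoglobulin family, was at 7.05, 11.36 and 7.23, and Igf2bp3, an RNA-binding protein of the fetal programme, was at 5.51, 9.71 and 6.08. Bst1, an ectoenzyme that is also a marker of early lymphoid and myeloid cells, was at 6.52, 10.31 and 6.73. For Mpzl2, Pdgfrb and Bst1 the transgenic and wild type levels lay within 0.5 of each other. Atp8a2, Dtx1, Coro2a, Ly86, Naip5, Itga9, Fbp1, Uaca, Prag1 and Blk completed the 15.

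**Figure D3:**
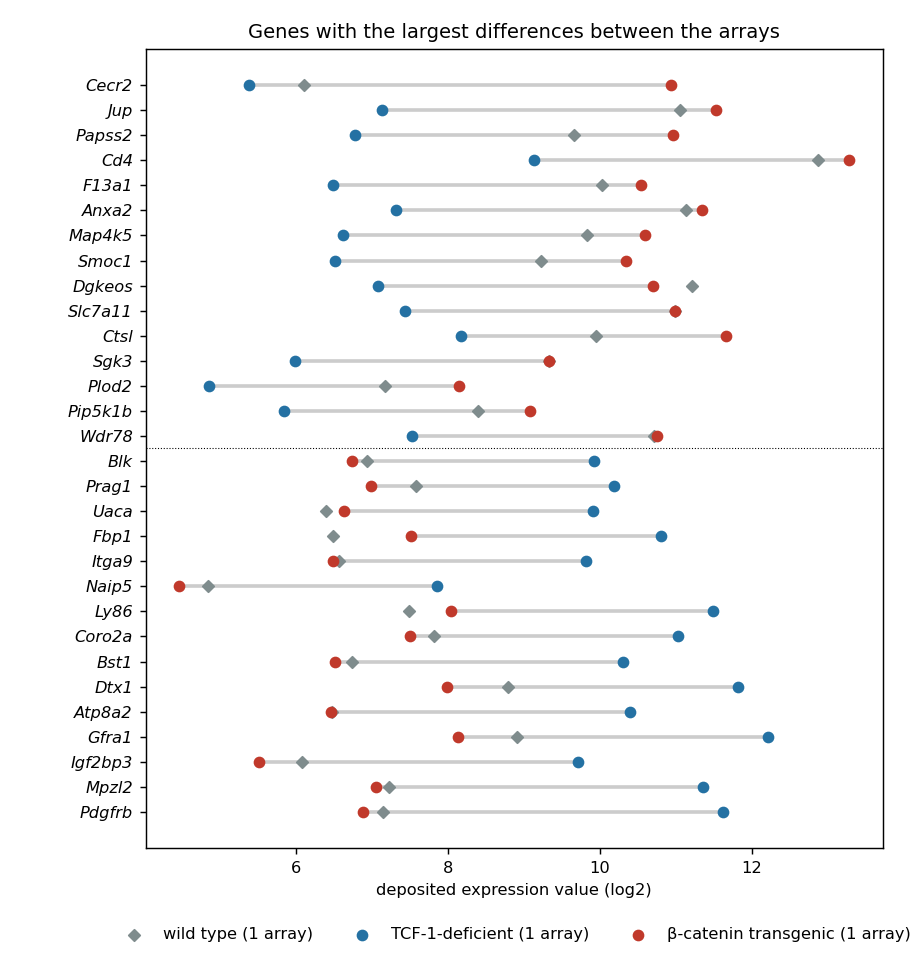
Log2 level of the genes with the 15 largest differences in each direction on the transgenic, TCF-1-deficient and wild type arrays. The wild type level of Cecr2 (6.10) sits near the TCF-1-deficient one (5.37), while that of Cd4 (12.87) sits near the transgenic one (13.29).

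Genes of double-positive cells were mostly higher on the transgenic array. Of 31 measured, 18 were higher (2.45% of all genes were) and 0 were lower, and the median difference was 1.17 against 0 over all genes. Median levels of the list were 11.52 on the transgenic, 10.18 on the TCF-1-deficient and 11.38 on the wild type array. Thy1, a surface protein of T cells, was bright on each array, at 13.25, 12.57 and 13.18. Fewer cells of a type and less RNA per cell cannot be told apart in such bulk RNA. Rag1, a subunit of the recombinase that joins receptor gene segments, was at log2 levels of 13.13, 11.09 and 13.04, and its partner Rag2 at 10.34, 8.80 and 10.23. The coreceptor chain genes Cd8b1, at 13.39, 11.26 and 13.36, and Cd8a, at 12.97, 11.48 and 12.93, had smaller differences than Cd4. Bcl6, a transcriptional repressor, was at 10.51, 7.90 and 10.48, and Themis, a protein of T-cell receptor signalling in selection, at 12.68, 10.86 and 12.60. Ccr9, a chemokine receptor of thymocytes, was at 13.24, 11.44 and 13.25. The member farthest in the other direction, named after its value was seen, was St6gal1, which adds sialic acid to glycans, at 8.90, 9.82 and 9.51, short of 2-fold.

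Promoter sequences of Rag1 and Bcl6 are given since both were high on the transgenic array. They, and Ptcra and Fas further below, were picked by hand, and only windows with a motif match were printed. The matches shown therefore do not reflect how common the motifs are. The sequences hold the 250 bases before the RefSeq start (GRCm38.p6), 5′ to 3′ on the gene's strand, with capitals marking letters that match 1 of 3 motifs searched on both strands: CTTTGA for TCF/LEF proteins, TTCCCA for RBPJ, the Notch partner, and CAGCTG, an E box. In Rag1 (chr2:101649533-101649782, minus strand) the capitals mark an E box 128 and an RBPJ match 52 bases before the start, and in Bcl6 (chr16:23981284-23981533, minus strand) a TCF/LEF match at 44 bases.
Rag1: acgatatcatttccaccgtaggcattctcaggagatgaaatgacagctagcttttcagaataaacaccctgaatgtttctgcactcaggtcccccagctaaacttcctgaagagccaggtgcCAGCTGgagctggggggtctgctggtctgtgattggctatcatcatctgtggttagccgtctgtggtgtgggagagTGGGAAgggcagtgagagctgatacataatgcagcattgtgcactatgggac
Bcl6: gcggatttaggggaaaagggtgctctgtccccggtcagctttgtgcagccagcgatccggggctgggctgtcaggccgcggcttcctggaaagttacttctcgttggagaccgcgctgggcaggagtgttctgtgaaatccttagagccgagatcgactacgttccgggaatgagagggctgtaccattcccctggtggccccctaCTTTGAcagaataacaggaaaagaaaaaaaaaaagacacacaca
The TCF/LEF letters were in 12.4% of 18382 promoter windows of 14958 measured genes, in 9.5% of the 484 windows of higher genes and in 8.94% of the 302 windows of lower genes. The RBPJ letters were in 20.8%, 19.6% and 20.2%, and the E box in 12.7%, 15.5% and 15.9%, in the same order. The share of windows with TCF/LEF letters was below that of all windows in both directions of call, and that of the E box was above it in both. No test was run on these shares, and a match is a description of letters, not a binding site.

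Genes of the DN3 stage and of Notch signalling went the other way. Of 25 measured DN3 and pre-T-cell receptor genes, 0 were higher and 13 were lower (1.6% of all genes were), with a median difference of -1.10. Of 18 measured Notch readout genes, 0 were higher and 10 were lower, with a median of -1.40. The lists share 9 genes, so they are not independent. Hes1, a repressor that Notch switches on, was at log2 levels of 6.53 on the transgenic, 9.55 on the TCF-1-deficient and 6.82 on the wild type array. Dtx1, an E3 ligase that answers to Notch, was at 7.99, 11.82 and 8.79. Il2ra, the IL-2 receptor alpha chain that marks DN2 and DN3 cells, was at 9.88, 12.50 and 10.44, and Ptcra, the pre-T-cell receptor alpha chain, at 8.37, 10.70 and 8.91. In each of these 4 genes the TCF-1-deficient array stood highest. The wild type level lay within 0.5 of the transgenic one for Hes1, and between the others, nearer the transgenic one, for Dtx1, Il2ra and Ptcra. Myc, a growth regulator that is also a Notch readout, was at 10.84, 12.23 and 11.13. The receptor genes Notch1 and Notch3, which stand in the readout and DN3 lists and were chosen for naming after their values were seen, were both lower on the transgenic array. Notch1 was at 10.36, 12.57 and 11.02, and Notch3 at 8.13, 10.13 and 8.53. Of 29 measured genes of the Notch pathway, a list without these receptors, 0 passed 2-fold in either direction and 11 had identical values. Dll1 is in both this list and the readout list. Of 20 early progenitor genes, 1 was higher (2.45% of all genes were), Cd44, a hyaluronan receptor, at 9.54, 6.95 and 7.85, and 2 were lower.

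The promoter of Ptcra is shown since it is a known Notch and E protein target. It lies at chr17:46763713-46763962 (GRCm38.p6, minus strand), and the capitals mark RBPJ matches 84 and 32 bases and E boxes 60 and 49 bases before the start.
Ptcra: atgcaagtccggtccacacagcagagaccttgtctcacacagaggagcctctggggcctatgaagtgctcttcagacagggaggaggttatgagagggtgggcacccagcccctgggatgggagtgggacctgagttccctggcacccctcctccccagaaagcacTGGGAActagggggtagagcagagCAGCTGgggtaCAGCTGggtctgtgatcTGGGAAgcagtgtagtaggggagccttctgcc

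**Figure D4:**
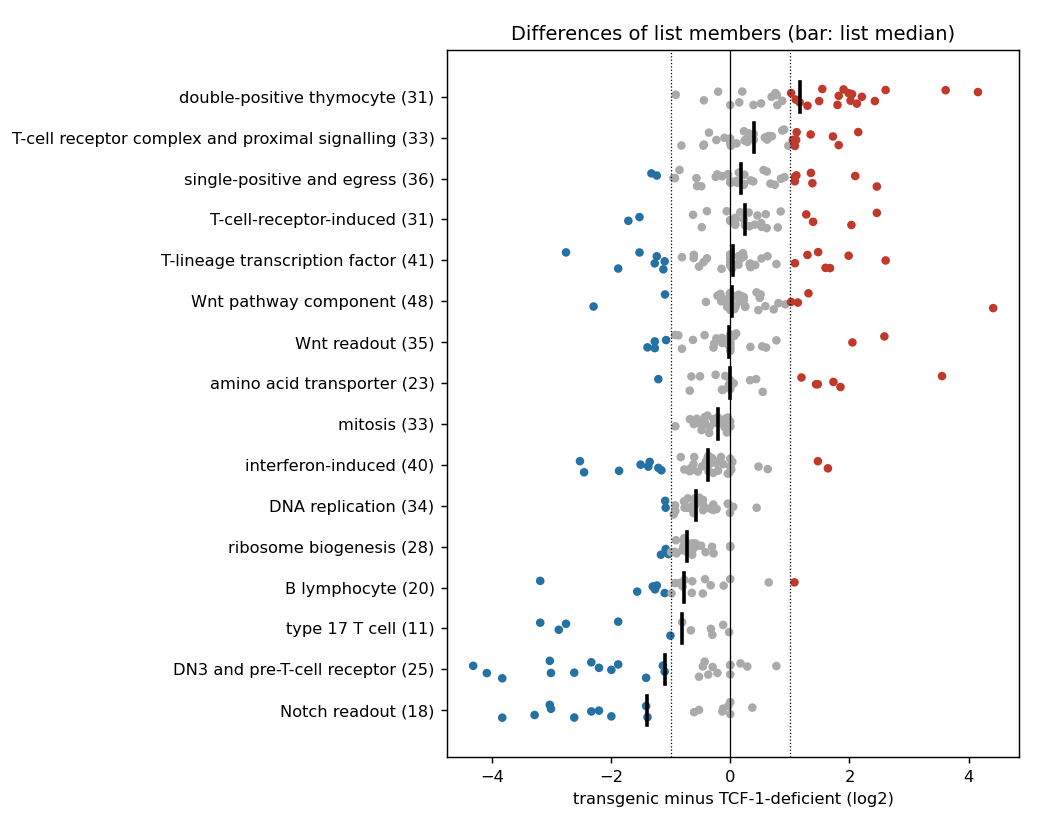
Log2 difference (transgenic minus TCF-1-deficient, x axis) of each measured member of the lists named on the y axis, 1 point a gene, with a bar at the list's median and dotted lines at 2-fold. Among the lists drawn, the double-positive list has the highest median (1.17) and the Notch readout list the lowest (-1.40).

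MicroRNA precursors were chosen for a closer look after their values were seen. Of 263 measured, 6 were higher (2.28%, near the 2.45% of all genes), 0 were lower and 155 had identical values, so the count does not set the precursors apart and the values below are those of single loci. Mir181a-1 and Mir181b-1, neighbours in a cluster known for tuning T-cell receptor sensitivity in double-positive cells, gave the 2 largest differences of these 6. Mir181b-1 was at log2 levels of 10.87 on the transgenic, 8.08 on the TCF-1-deficient and 11.64 on the wild type array, and Mir181a-1 was at 7.44, 5.25 and 8.66. In all 6 the wild type level was the highest and the TCF-1-deficient the lowest. The 6617 unnamed probe sets described above had the same order, with median levels of 6.89 on the wild type, 6.44 on the transgenic and 5.96 on the TCF-1-deficient array, and the part of that shift in the precursor values was not tested. Of the other miR-181 loci, Mir181b-2 differed by 0.64. Mir181a-2, Mir181c and Mir181d had identical values on the 2 arrays, which is not a measured equality. The array measures precursors, so mature RNA was not measured. Mature sequences (RefSeq, GRCm38.p6) are shown 5′ to 3′ with the seed, bases 2 to 8, in capitals, since miR-181a-5p (chr1:137966468-137966490, plus strand) and miR-181b-5p (chr1:137966650-137966673, plus strand) share 1 seed, while miR-142a-3p (chr11:87756903-87756925) and miR-15b-5p (chr3:69009775-69009796) have their own.
miR-181a-5p: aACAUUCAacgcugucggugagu
miR-181b-5p: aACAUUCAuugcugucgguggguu
miR-142a-3p: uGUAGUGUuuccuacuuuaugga
miR-15b-5p: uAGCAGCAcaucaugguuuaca
Mir142, from a locus active in blood cells, was at 8.68, 7.23 and 9.63, and Mir15b, of the miR-15 family, at 6.81, 4.88 and 7.45.

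T-cell receptor signalling genes leaned upward, read against shares over all genes of 2.45% higher and 1.6% lower. Of 33 measured genes of the receptor complex and its proximal signalling, 8 were higher and 0 were lower, and the median difference was 0.39. Sit1, an adaptor that dampens signalling, was at log2 levels of 11.86 on the transgenic, 9.71 on the TCF-1-deficient and 11.42 on the wild type array, and Txk, a kinase of the Tec family, was at 10.27, 8.55 and 10.34. Of 31 genes that receptor signals induce, 4 were higher and 2 were lower. Cd69, an early activation marker, was at 10.62, 8.16 and 10.40, and Egr2, a transcription factor of selection, was at 9.13, 7.10 and 9.39. Pdcd1, which encodes the inhibitory receptor PD-1, was at 8.14, 9.85 and 8.38, opposite to them. Of 36 single-positive and egress genes, 7 were higher and 2 were lower. H2-Q2, an MHC class I gene, was at 11.64, 9.54 and 10.56. Runx3, a factor of the CD8 lineage, was among the lower ones, at 10.23 on the TCF-1-deficient and 9.38 on the wild type array, with a difference of -1.23. Of 26 immediate early and heat shock genes, 4 were higher and 0 were lower, among them Jund, of the AP-1 family, at 9.96, 8.49 and 10.30. Of 18 genes of V(D)J recombination and repair, Rag1 and Rag2 were higher and Xrcc5, the Ku80 repair subunit, was lower, at 8.04, 9.06 and 8.48.

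Wnt genes did not share a direction. For comparison, 2.45% of all genes were higher and 1.6% were lower. Of 35 measured Wnt readout genes, 2 were higher and 4 were lower, and of 48 components 4 were higher and 2 were lower. The medians were -0.02 and 0.03. Ctnnb1, which encodes β-catenin itself, was at log2 levels of 11.39 on the transgenic, 11.16 on the TCF-1-deficient and 11.15 on the wild type array, short of 2-fold. Which part of a β-catenin transcript the probe set covers, and so whether it reads the transgene, is not given in the sources used here. Axin2, a feedback inhibitor and common Wnt readout, was at 8.60, 9.22 and 8.23, and Lef1, a relative of TCF-1, was at 11.65, 12.46 and 11.92, also short of 2-fold. Dact1, an intracellular modulator of Wnt signalling, was at 8.14, 6.09 and 6.54, and with Cd44 it was one of the higher readouts, both with a wild type level nearer the TCF-1-deficient one. The 4 lower readouts were Myc, Id2, Fzd7 and Ccnd1, with differences of -1.39, -1.27, -1.27 and -1.08. Ctnnd1, which encodes p120 catenin, was at 6.03, 8.33 and 5.99. Ctnna1, α-catenin, was at 7.81, 6.79 and 7.80; its difference was 1.02 and fell below 1 when the arrays were centred or quantile normalised.

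Survival and death genes differed one by one, and their counts stand beside 2.45% of all genes higher and 1.6% lower. Bcl2l1, which encodes the pro-survival BCL-xL of double-positive cells, was at log2 levels of 10.48 on the transgenic, 8.58 on the TCF-1-deficient and 10.23 on the wild type array. Mcl1 was at 11.08, 10.21 and 10.92, short of 2-fold, and Bcl2 was at 10.37, 10.37 and 10.61. Bcl2l1 was the 1 pro-survival member of 5 past 2-fold. Of 13 pro-apoptotic genes, 0 were higher and 1 was lower, Bcl2l14, at 6.17, 8.41 and 6.25; Bcl2l11, which encodes BIM, was at 9.64, 9.33 and 9.61. Of 29 death receptor and caspase genes, 2 were higher and 1 was lower. Fas, a death receptor, was at 9.28, 6.52 and 9.12, and Tnfrsf1a, a TNF receptor, at 10.38, 8.89 and 10.40. Tnfsf10, the ligand TRAIL, was at 7.66, 8.78 and 7.99. Of 21 p53 target genes, 3 were higher and 1 was lower. Btg2, an antiproliferative gene, was at 12.69, 11.39 and 12.52.

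The promoter of Fas is shown since Fas holds both a TCF/LEF and an RBPJ match. It lies at chr19:34290409-34290658 (GRCm38.p6, plus strand), with the TCF/LEF match 103 and the RBPJ match 90 bases before the start in capitals.
Fas: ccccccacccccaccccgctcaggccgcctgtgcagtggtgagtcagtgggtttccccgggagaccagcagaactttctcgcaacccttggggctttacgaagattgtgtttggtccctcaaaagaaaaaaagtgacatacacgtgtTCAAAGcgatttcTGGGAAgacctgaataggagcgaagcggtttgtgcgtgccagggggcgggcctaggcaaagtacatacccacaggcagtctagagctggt

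Transcription factors of the T lineage split evenly, with 7 higher and 7 lower of 41 measured (17.1% each). Over all genes the shares were 2.45% higher and 1.6% lower. Among the higher ones, Ets2 was at log2 levels of 12.74 on the transgenic, 10.76 on the TCF-1-deficient and 12.27 on the wild type array, and Nfatc3 was at 13.08, 11.48 and 12.66. Among the lower ones, Maf was at 7.58, 10.33 and 7.47, Sox13, a factor of γδ T cells, at 7.75, 9.63 and 7.68, and Id2, an inhibitor of E proteins, at 9.89, 11.16 and 10.36. In the lower genes Maf, Sox13 and Id2 the wild type level lay within 0.5 of the transgenic level.

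Most growth genes had differences below 0 that were short of 2-fold. Of 28 measured ribosome biogenesis genes, 0 were higher and 3 were lower past 2-fold (1.6% of all genes were lower). Past 1.5-fold 20 were lower (4.48% of all genes were), and the median difference was -0.73. Median levels of the list were 8.93 on the transgenic, 9.70 on the TCF-1-deficient and 8.93 on the wild type array. Polr1b, a subunit of RNA polymerase I, was at 8.89, 9.97 and 8.95, and Fbl, the methyltransferase fibrillarin, at 9.22, 10.22 and 9.22. Of 34 DNA replication genes, 2 were lower past 2-fold and 16 past 1.5-fold, with a median of -0.58 and 32 of 34 lower by any amount. Mcm3, of the replicative helicase, was at 9.30, 10.39 and 9.70. Of 33 mitosis genes, 0 passed 2-fold and 30 were lower by any amount, with a median of -0.21. Of all genes, 34.6% were lower by any amount and 24.6% higher.

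**Figure D5:**
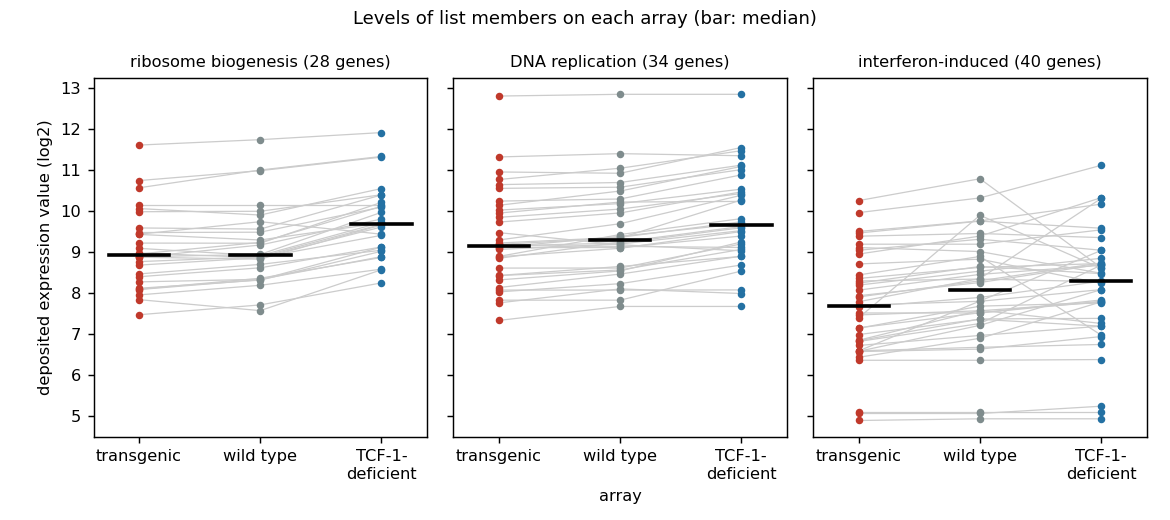
Log2 levels of the ribosome biogenesis, DNA replication and interferon-induced genes on the 3 arrays (x axis), 1 point a gene, with lines joining a gene and a bar at the median. The ribosome biogenesis list has median levels of 8.93 on the transgenic, 9.70 on the TCF-1-deficient and 8.93 on the wild type array.

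Interferon-induced genes leaned downward, with 8 lower (20%) and 2 higher (5%) of 40 measured and a median difference of -0.37. Shares over all genes were 1.6% lower and 2.45% higher, below both shares of the list. Usp18, which removes the ubiquitin-like ISG15, was at log2 levels of 7.79 on the transgenic, 10.31 on the TCF-1-deficient and 8.36 on the wild type array, and Rtp4, an interferon-induced chaperone, at 6.59, 9.04 and 7.81. Gbp4, a guanylate-binding protein, was at 10.26, 8.62 and 10.80, in the opposite direction.

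Receptors, adhesion and transport genes held large single differences. Their counts are read against the shares over all genes, 2.45% higher and 1.6% lower. Since the lists were written with earlier results known, the counts partly reflect the choice of members. Of 36 interleukin and cytokine receptors, a list that also holds Pdgfrb and Gfra1, 4 were higher and 5 were lower. Pdgfrb and Gfra1 were among the lower. Il4ra, the IL-4 receptor alpha chain, was at log2 levels of 10.86 on the transgenic, 8.35 on the TCF-1-deficient and 10.61 on the wild type array. Of 39 integrin, laminin and collagen genes, a list that also holds Smoc1, 4 were higher, Smoc1 among them, and 3 were lower. Itgae, the integrin CD103 chain, was at 7.04, 9.33 and 7.67, and Lamc1, a laminin chain, at 9.17, 6.93 and 8.02. Of 16 annexins and their S100 partners, 3 were higher and 0 were lower; Anxa5 was at 12.20, 9.52 and 11.35 and S100a10, the partner of Anxa2, at 11.36, 9.36 and 11.26. Of 23 amino acid transporters, 6 were higher and 1 was lower. Slc1a4 was at 8.00, 6.56 and 6.10, with the wild type nearer the TCF-1-deficient level, and Slc43a2 was at 10.46, 8.73 and 10.48. Of 28 glycolysis and gluconeogenesis genes, 2 were higher and 3 were lower. Ldhb, a lactate dehydrogenase subunit, was at 11.41, 9.64 and 10.96. Fbp1, the member with the largest difference, went the other way, at 7.51, 10.81 and 6.48. Of 23 genes of cholesterol and fatty acid synthesis, 0 were higher and 2 were lower; Scd1, a desaturase, was at 7.93, 9.23 and 7.28. Of 33 chemokine genes and receptors, Ccr9 was the 1 higher, and Cxcr6, at 6.86, 8.09 and 7.60, the 1 lower, each 3.03% of the list and near the shares over all genes. Of 14 effector and glucocorticoid response genes, 1 was lower: Fkbp5, a chaperone of the glucocorticoid receptor, at 9.50, 10.65 and 9.99.

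Markers of some other cell types differed too, and their part in the results above was not tested. Over all genes 2.45% were higher and 1.6% were lower. Of 20 B lymphocyte markers, 1 was higher and 6 were lower, with a median difference of -0.78 and median levels of 6.83 on the transgenic, 7.77 on the TCF-1-deficient and 6.89 on the wild type array. Cd79a, a B-cell receptor subunit, was at log2 levels of 7.96, 9.52 and 6.99, and Ms4a1, which encodes CD20, at 6.50, 7.77 and 6.13. Of 11 type 17 T cell markers, 5 were lower and all 11 were lower by any amount, and of 26 γδ, innate-like and NK markers 7 were lower and 1 was higher. The median difference of those 26 was -0.01, and 7 of them had identical values. Blk, a Src-family kinase at 6.74, 9.93 and 6.93, is in all 3 of these lists. The type 17 list shares 3 genes with the γδ, innate-like and NK list: Blk, Cd163l1 and Sox13. All 3 were lower past 2-fold, so the counts of these lists are not independent. Another lower type 17 marker, 5830411N06Rik, fell short of 2-fold when a loess trend was removed. Gzma, a granzyme, was at 8.54, 11.60 and 8.95, and Trgv1, a receptor gamma variable segment chosen after its value was seen, at 9.17, 12.04 and 9.90. Trdv2-2, a delta variable segment also chosen after its value was seen, went the other way, at 7.75, 5.92 and 8.34. Of 3 delta segments measured, 1 was higher and 0 were lower. Of 15 regulatory T cell markers, 6 were lower past 2-fold and 3 were higher by any amount. The 6 include Il2ra, given above as a DN2 and DN3 marker, and Ikzf2 and Itgae, which stand in other lists too. Nrp1 was at 7.84, 10.70 and 8.99. The remaining lists had few calls, and shares from so few genes are coarse: of 27 macrophage markers 1 was higher (3.7%) and 2 were lower (7.41%), of 17 granulocyte markers 2 were lower, of 24 dendritic cell markers 2 were higher and 1 was lower, and of 21 thymic epithelial markers 1 was higher (4.76%). Of 9 plasma cell markers 1 was higher and 2 were lower, of 23 fibroblast and endothelial markers 1 was lower (4.35%), which was Pdgfrb, and of 8 erythroid markers 1 was lower. Cpa3, a mast cell protease in the granulocyte list, was at 6.81, 9.96 and 7.04.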

How the data were processed

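The arrays measured RNA of thymocytes of 1 mouse per genotype. The authors deposited 1 log2 value per probe set and array, normalised with RMA and handled in Partek per the submitters' processing notes; the sources used here do not state versions, settings or build. No header states the log base: log2 was taken from RMA and the range of values, 1.73 to 14.8. The deposited normalisation was kept. Of 35556 probe sets, 21789 had 1 symbol in the platform annotation, and 99.6% of these matched the GRCm38.p6 gene table by Entrez identifier. Medians over all probe sets were 6.65 (transgenic), 6.60 (TCF-1-deficient) and 6.73 (wild type).

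Differences and folds were computed with Python 3.11.15, NumPy 2.4.6 and pandas 2.3.3, and figures with matplotlib 3.10.9. Genes were called at 2-fold, with no p-value. Named genes were the 15 largest differences in each direction among genes whose brighter array reached the median level, without predicted genes, clone names, small RNAs, olfactory and vomeronasal receptors and receptor segments, up to 6 members of each list, and a fixed set that includes Ctnnb1, Jup, Myc and Rag1; others are said to be chosen after their values were seen. The members and the 29 gene lists and 11 marker lists were chosen with earlier results of these data known. Alternatives were other folds, a filter on dim genes, centring, quantile normalisation, loess, other probe set rules, all chromosomes, and other margins.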

Additional observations from a re-analysis of the deposited data

How the results depend on the processing

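The fold limit moved the counts most: at 1.5-fold 1200 genes were higher and 856 lower, and at 3-fold 168 and 113. Other settings gave 411 to 489 higher and 286 to 361 lower genes; quantile normalisation took the share of higher genes among calls from 60.5% to 53.2%. With a margin of 0.25 (log2), the wild type lay at the transgenic level for 279 (59.6%) of the higher and 172 (56.4%) of the lower genes, in place of 391 and 249. That of higher genes lay at the TCF-1-deficient level for 3, between for 127 and outside for 59, and of lower genes for 0, 108 and 25. With a margin of 1, the counts for higher genes were 20, 6 and 2, and for lower genes 2 were between and 4 outside. Of 142 named genes past 2-fold, 0 changed sign under centring, quantile normalisation or loess, and 2, 2 and 1 in turn fell short of 2-fold. Over those scalings the median difference ranged from 1.07 to 1.17 for the double-positive list, from -1.46 to -1.40 for Notch readouts and from -0.81 to -0.73 for ribosome biogenesis, and the median over all genes moved by at most 0.07 in size. Leaving out dim genes moved 13 list medians: Notch readouts to -1.99, type 17 markers from -0.81 to -2.32, and γδ, innate-like and NK markers from -0.01 to -1.26. This filter kept a gene when the brighter of the 2 arrays reached the median level. A gene high on 1 array passes through that array, so the filter itself favours large differences. These larger medians are therefore no support for the list results. For several lists with a median near 0, such as Wnt components (-0.04 to 0.03), the sign depended on the scaling. No paired analysis was possible because each genotype had 1 array, and no array could be left out.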

Other observations

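Called genes that neighbour each other, chosen after their values were seen, formed 46 runs of 100 genes, with 30 runs higher and 16 lower on the transgenic array. In all, 468 genes (2.45%) were called higher and 305 (1.6%) lower, so more higher than lower runs can form. The number of runs expected from these shares was not computed, so the counts do not show clustering. The longest higher run held 4 genes, Tctex1d1, Insl5, Wdr78 and Mier1. Other higher runs were Rag2 with Rag1, Cd8b1 with Cd8a and Rmnd5a, Il4ra with Il21r, Slamf1 with Cd84, and Tnfaip3 with Olig3 and Ifngr1. Lower runs included Gpr83 with Izumo1r, both used as regulatory T cell markers, Mtap with Cdkn2a, and Tmem176b with Tmem176a.

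The families and genes below were chosen after their values were seen. Receptor segments of the alpha locus were higher in 3 of 6 measured (2.45% of all genes were). Trav14-1 was at log2 levels of 10.53 on the transgenic, 7.23 on the TCF-1-deficient and 10.37 on the wild type array. Of 56 cytosolic ribosomal protein genes, 0 were higher and 1 was lower (1.79%, near the 1.6% of all genes), with a median difference of -0.36. Of 49 small nucleolar RNAs 0 passed 2-fold. Of 748 genes of chromosomes X and Y, left out of the comparison, 21 were higher and 8 were lower. Beside 2.45% and 1.6% of the autosomal genes, these counts do not set the 2 chromosomes apart. Bex1 was at 3.92, 8.60 and 4.20, and Armcx3 at 8.31, 5.05 and 8.16.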
